A study of Mus musculus with 8 samples.

Results

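Wild-type mouse cerebral cortex was measured as polyA RNA and as total RNA on both strands of the imprinted domain around Ube3a. The comparison uses 4 of the 8 samples of the series, chosen by their labels: total RNA of 2 wild-type samples and polyA RNA of the same 2 samples. All 4 are labelled as C57BL/6 cortex at postnatal day 0 with no mutation, and they share the array design. For total RNA, 15 µg was labelled, and for polyA RNA 750 ng, taken with oligo(dT) beads from 30 µg of total RNA. The design text ties each polyA sample to its wild-type sample, so sample 1 and sample 2 each form a pair. The design text calls the wild types littermates of the deletion mutants, without giving the number of animals per sample. The p-values therefore reflect the spread between these few samples alone, part of which may be technical. In the fits on region strands, other than those of strand gaps, this spread was pooled over many rows of the same 4 arrays. Those p-values are therefore smaller than 4 arrays warrant. Probes carry no gene names, so markers of cortex were not checked and the gene lists drawn up for this comparison could not be used. The 2 single deletions of the series, one on the maternal and one on the paternal chromosome from Snrpn to Ube3a, served here only to find probes whose signal depends on one parental allele. Each of them is 1 array of total RNA.

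Ube3a encodes an E3 ubiquitin ligase that is transcribed from the maternal allele in most neurons. The paternal allele carries a very long RNA that starts at the promoter of Snrpn, a gene for a spliceosome protein, and runs on the opposite strand through clusters of small nucleolar RNA genes into Ube3a, where it is called Ube3a-ATS. Small nucleolar RNAs are cut out of introns of such host transcripts and carry no polyA tail, and introns are removed from a messenger RNA before export. Selection on oligo(dT) beads enriches RNA that carries a polyA tail.

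The array holds 50496 probes over 1810 kb of chromosome 7 (chr7:65890585-67700765, build mm9) as 25248 pairs with the same coordinates on opposite strands, and 3338 probes elsewhere. In the orientation of the build Ube3a lies on the plus strand, and the long paternal RNA on the minus strand. Of the tiled probes 18492 come from the maker's catalogue and 32004 were designed for this array. Each probe reads 1 strand, because first-strand cDNA was labelled. PolyA arrays were dimmer: median red intensity was 134.5 and 125 with total RNA over a local background of 38 and 37, and 45 and 44 with polyA RNA over 34. The share of spots well above background was 81.8% and 81.1% on the total RNA arrays. It was 61.4% and 56.6% on the polyA arrays. Over the tiled span the signals of opposite probes correlated at 0.45 (total RNA) and 0.75 (polyA RNA) among 12496 custom pairs, and at 0.09 and 0.06 among 5418 catalogue pairs. These are correlations across probes of the same arrays, not across samples.

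The level of a region or 10-kb bin is the mean log2 signal of its probes on 1 strand, relative to the median bin of the same array. The net signal kept is the summed intensity above local background on the polyA array as a percentage of that on the total RNA array of the same pair, over probes well above background on both total RNA arrays. Since the amounts labelled and the brightness of the arrays differed, a percentage kept has no absolute meaning and was only set against other regions of the same pair. Region bounds follow a 10-kb grid and carry working names, because no annotation of build mm9 was used. The plus strand of the Ube3a 3′ part was taken as the reference for all other regions.

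Between the 2 RNA types almost everything tested passed the test, so a call by itself singles out nothing. In limma with Benjamini-Hochberg adjustment, 310 of 356 strand bins passed (87.1%), of which 165 (46.3%) were higher and 145 (40.7%) lower in polyA RNA. That split belongs to the scale: it was 311 to 39 when each array was scaled to the 75th percentile of all its probes, 178 to 113 when the 75th percentile came from probes beyond the tiled span, and 112 to 145 after quantile normalization. Relative to the scale used here, these moved the median bin by 1.67, 0.21 and -0.01 on the log2 scale. Among single probes 31611 of 41874 passed (75.5%), 16431 higher (39.2%) and 15180 lower (36.3%). On the 75th percentile of all probes the split of probes was 33453 to 5676, and after quantile normalization 8250 to 15377. Of 26 region strands 23 passed (88.5%), 9 higher (34.6%) and 14 lower (53.8%). Of the tested probes 8636 were not above background on either polyA array. Differences between strands or regions of the same array do not depend on the value its log2 levels are centred on, and carry the account that follows. Differences of log2 level can still depend on the brightness of the array, because a constant was added to the signals before log2. Dimming of a whole array then brings bright and dim strands closer, and the polyA arrays were dimmer. How much of each difference of log2 level stems from this was not tested.

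By strand, 103 of 178 minus-strand bins were lower in polyA RNA and 50 higher, and of 178 plus-strand bins 42 were lower and 115 higher. These counts are relative to the median bin and, like the split above, belong to that scale. The lower minus-strand bins included all 27 of plateau 2, all 9 of plateau 4, all 6 of the dim stretch, all 6 of the stretch downstream of Snrpn and all 4 of the Ube3a 3′ part. Opposite them on the plus strand, 24 of the 27 bins of plateau 2 and all 6 of the stretch downstream of Snrpn were higher.

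**Figure D1:**
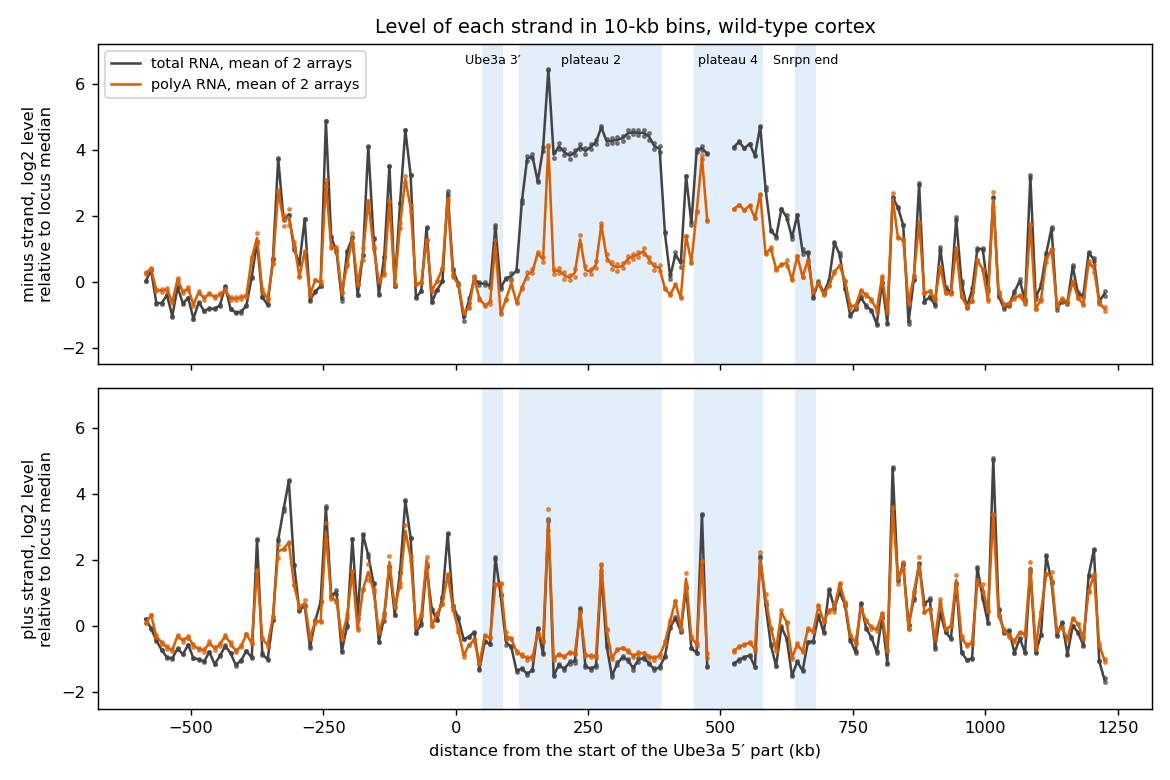
Mean log2 level of each strand in 10-kb bins, relative to the median bin of the array, against distance in kb from the start of the Ube3a 5′ part. Lines are means of 2 arrays, dots single arrays. Over plateau 2 the minus-strand lines lie far apart, 4.19 and 4.04 with total RNA against 0.75 and 0.59 with polyA RNA, while both RNA types follow each other on the plus strand.

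The 3′ part of Ube3a (chr7:66530001-66570000) differed between its strands. Its plus strand, which carries the Ube3a messenger, had levels of 0.41 and 0.40 in total RNA, against 0.43 and 0.46 in polyA RNA, a difference of 0.04 ± 0.04 (SE, limma adjusted p = 0.356). The opposite strand, which carries Ube3a-ATS, had 0.18 and 0.27 in total RNA, against -0.37 and -0.45 in polyA RNA. Both polyA values of the plus strand lay slightly above both total RNA values, and both polyA values of the minus strand lay well below. As a strand gap, minus less plus, the region moved from -0.23 and -0.13 to -0.80 and -0.91, so in both RNA types the sense strand was the brighter one and its lead grew by 0.67 ± 0.06 (limma adjusted p = 0.00073). In a fit on all 8 samples this gap kept its size (0.67) and missed the threshold (limma adjusted p = 0.192). That fit treats 2 samples with different paternal Snrpn promoter deletions as replicates.

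The net signal depended on which probes were summed. Over the catalogue probes of the 3′ part, polyA RNA kept 33.4% and 33.7% of the sense signal in the 2 pairs, and 9.42% and 6.87% of the antisense signal. Relative to the sense strand the antisense strand was thus lower in polyA RNA by 2.06 ± 0.13 on the log2 scale (limma on log2 net signal, adjusted p = 2.55e-20). Over all probes, custom ones included, the order was the opposite: the sense strand kept 15.7% and 15.3% of 673 probes' signal and the antisense strand 35.1% and 27.8% of 683 probes' signal. Restricting the antisense strand to the 558 of those 683 probes that depended on the paternal allele gave 6.93% and 4.84%. The sense strand over all probes was not restricted by allele. Its 1-kb windows from chr7:66550001 to chr7:66556000, of 9 or 10 probes each, had net intensities of 28568.5 to 55204 in total RNA. The mean over all 673 probes was 4631 and 4317. Those windows kept 4.95% to 13.98% and thus weigh heavily in the sum. In the fit on catalogue probes, a measure added after the data were seen, 24 of 25 region strands passed (96%), 21 of them lower than the reference (84%) and 3 higher (12%).

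Probes were then taken by their dependence on one parental allele, a choice made after the data were seen. On the plus strand of the 3′ part 215 of 316 catalogue probes dropped to 50% or less of the wild-type signal with the maternal deletion, and on the minus strand 296 of 319 dropped to 25% or less with the paternal deletion. Over those probes the sense signal of the 4 bins, in order along the gene, was kept at 25.1% and 24.6%, then 30.6% and 28.9%, then 23.9% and 23.0%, and 46.8% and 47.7% in the last bin. The antisense signal of the same bins was kept at 4.99% and 3.78%, 10.1% and 6.58%, 8.16% and 5.25%, and 4.38% and 3.48%. The lowest sense value stood above the highest antisense value in every bin, but the sense probes had met the looser cut. With the maternal deletion they still had mean net intensities of 274, 216, 67.9 and 252 in the 4 bins. On the polyA arrays they had 211 and 207, 218 and 196, 55.8 and 50.2, and 466 and 468. The kept sense share was not split by allele. In absolute terms the antisense probes held a mean net intensity of 22.0 and 15.2 on the polyA arrays, close to the 14.2 that the same probes kept in total RNA of the paternal deletion.

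In 5 neighbouring windows of 1 kb, from chr7:66562001 to chr7:66567000, the sense signal was kept at 43.5% to 71.8%. The windows from chr7:66536001 and chr7:66537001 reached like shares, at 52.9% and 49.7% and at 43.9% and 51.0%. There the opposite strand also kept 38.4% and 39.3%, and 34.8% and 28.2%. A bright sense probe of the second window (chr7:66537635-66537694) had 10145 and 9705 in wild-type total RNA and 10048 with the maternal deletion. These 2 windows are thus not shown to carry maternal signal. Among the 5 windows, the one from chr7:66564001 also holds such a probe, at chr7:66563993-66564050. That probe had 15238.5 and 11070.5 in wild-type total RNA and 17902 with the maternal deletion. The 1-kb window at chr7:66562001-66563000 had net intensities of 1122 and 1164 in total RNA, against 553 and 569 in polyA RNA, a share of 49.3% and 48.9%. The window at chr7:66565001-66566000 had 1360.3 and 1399.7 against 867 and 854, which is 63.7% and 61.0%. In the window just past these 5, from chr7:66567001, the share was 19.9% and 17.1%. The 20 brightest of 316 catalogue probes, picked on each array separately, held 36.8% and 35.9% of the region's total RNA signal and 33.4% and 33.0% of its polyA signal.

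The 5′ part of Ube3a (chr7:66480001-66530000) was dim on both strands. Its plus strand had levels of -0.42 and -0.43 in total RNA, against -0.68 and -0.62 in polyA RNA, and relative to the 3′ part it was lower in polyA RNA by 0.26 ± 0.05 (limma adjusted p = 6.18e-07). Catalogue probes kept 12.7% and 13.8% of the signal, but only 13 of 419 met the rule for dependence on the maternal allele. The 5′ part lies outside the deletion, so its template remains on the maternal chromosome. The rule therefore cannot tell which allele this sense signal comes from. Over all 858 probes the strand kept 34.5% and 33.9%, above the 15.7% and 15.3% of the 3′ part, so the direction relative to the 3′ part turned with the probes summed. On the minus strand the levels were -0.42 and -0.29 in total RNA, against -0.45 and -0.48 in polyA RNA. Relative to the sense 3′ part this was a difference of -0.14 that passed without the pairing (adjusted p = 0.0037) and missed the threshold with the pair as a block (adjusted p = 0.171). The strand gap of the 5′ part did not pass (0.12 ± 0.06, adjusted p = 0.156). Of the 433 minus-strand catalogue probes above background 37 depended on the paternal allele, and they kept 12.3% and 8.93%.

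**Figure D2:**
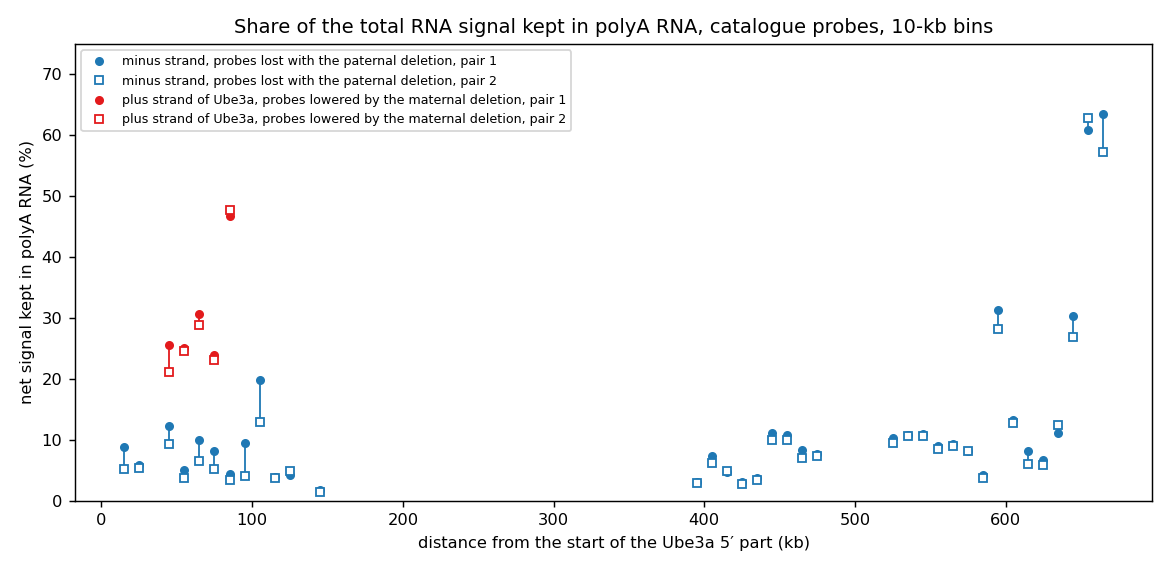
Net signal kept in polyA RNA (%) in 10-kb bins with at least 3 allele-dependent catalogue probes, against distance in kb from the start of the Ube3a 5′ part. Filled circles are pair 1, open squares pair 2, and a line joins the pairs of a bin. Sense bins of Ube3a lie above the antisense bins at the same place, and the Snrpn end reaches 63.5% and 57.2%.

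At the other end of the long minus-strand RNA, the Snrpn end (chr7:67120001-67160000) kept a larger share in its summed signal. Its catalogue probes on the minus strand kept 43.6% and 41.3% of the signal, above the 33.4% and 33.7% of the sense strand of Ube3a, a difference of 0.34 ± 0.13 on the log2 scale (limma on log2 net signal, adjusted p = 0.0125). The mean of log2 levels turned the other way: levels were 0.93 and 0.88 in total RNA, against 0.34 and 0.35 in polyA RNA, which relative to the sense 3′ part of Ube3a is a decrease of 0.60 ± 0.05 (limma adjusted p = 1.71e-17). The median probe of this region kept 9.22% and 9.46%. The 20 brightest of 347, again picked on each array, held 45.1% and 43.7% of the total RNA signal and 84.0% and 82.9% of the polyA signal.

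Most of the probes brightest with polyA RNA lay in 2 short stretches. In the 6 windows from chr7:67128001 to chr7:67134000 and the window at chr7:67140001-67141000, polyA RNA kept between 54.8% and 86.4%. The first of them had net intensities of 3567 and 3066 in total RNA, against 3034 and 2590.1 in polyA RNA, and 74.5 with total RNA of the paternal deletion. Among single probes, the one at chr7:67140280-67140339 had 19808 and 15166.5 with total RNA, 17807 and 13561 with polyA RNA, and 251 with the paternal deletion. The probe at chr7:67132290-67132349 had 15434 and 15356 against 15355 and 13306, with 1008 in the paternal deletion. The window after the first stretch, from chr7:67134001, kept 5.59% and 6.33%. No annotation was used that would place them in exons.

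These windows also depended on the paternal allele. Among the 18 windows of the Snrpn end whose paternal-deletion signal was at most 25% of the wild-type signal, 7 kept over 50% in both pairs and 5 kept under 10%. Of the 24 such windows of the stretch downstream of Snrpn 1 kept over 50%, and of the 20 such windows opposite the Ube3a 3′ part, 243 of plateau 2, 19 of the dim stretch and 49 of plateau 4, none did. The highest share in those 4 regions was 24.3%. The first 30 kb past Ube3a had 14 such windows and the Ube3a 5′ part 3, with highest shares of 27.9% and 14.5%.

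**Figure D3:**
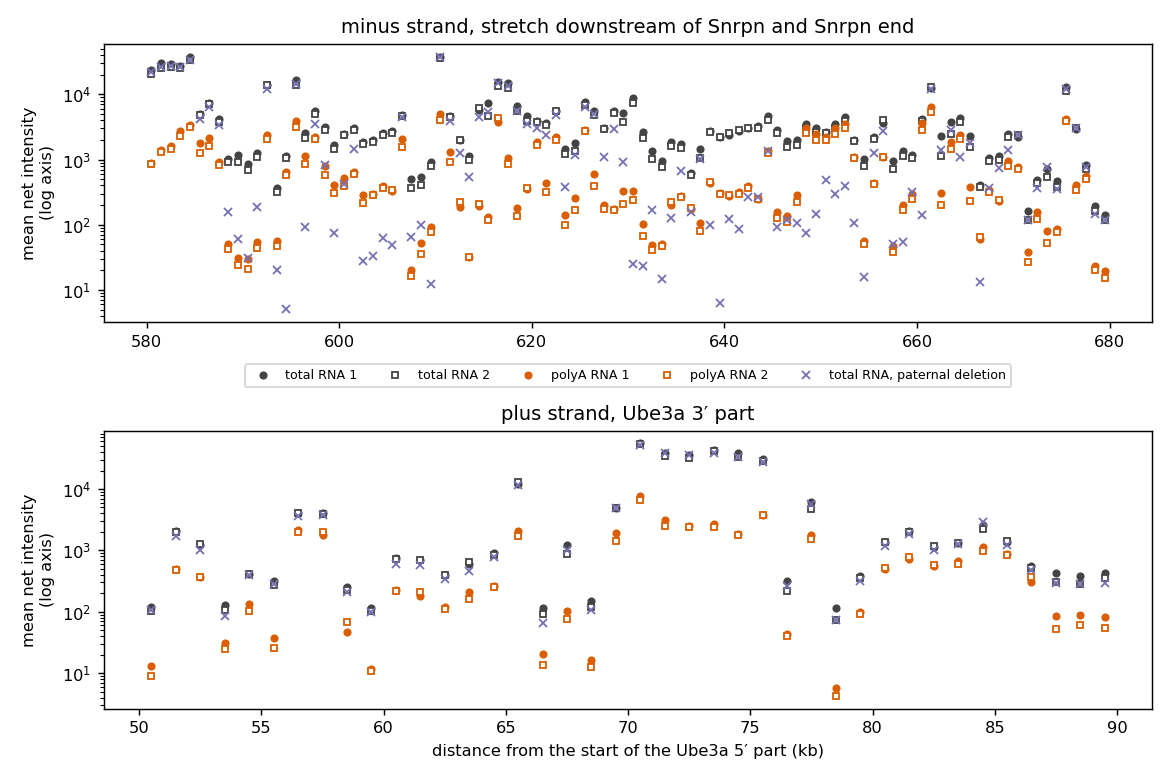
Mean net intensity (log axis, values under 1 drawn at 1) of 1-kb windows on the minus strand from the stretch downstream of Snrpn through the Snrpn end, and on the plus strand of the Ube3a 3′ part, against distance in kb. Filled circles and open squares are samples 1 and 2, crosses total RNA of the paternal deletion. In the 6 windows from chr7:67128001 to chr7:67134000 polyA RNA lies close to total RNA while the crosses lie far below.

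The stretch downstream of Snrpn (chr7:67060001-67120000) joins the Snrpn end to plateau 4 on the minus strand. Its levels were 1.84 and 1.77 in total RNA, against 0.58 and 0.54 in polyA RNA, both polyA values far below both total RNA values. Relative to the sense 3′ part of Ube3a it was lower in polyA RNA by 1.28 ± 0.05 (limma adjusted p = 1.41e-31). Catalogue probes kept 14.9% and 14.3%. Over paternal-dependent probes the bin at chr7:67070001-67080000 kept 31.3% and 28.2%, whereas its neighbour at chr7:67060001-67070000 kept 4.30% and 3.78%. Within the former, the window at chr7:67074001-67075000 had net intensities of 1129.9 and 1063 with total RNA, 653 and 570 with polyA RNA, and 5.05 with the paternal deletion, and the window at chr7:67076001-67077000 kept 43.8% and 40.0%.

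Plateau 4 (chr7:66930001-67060000), one of the 2 bright plateaus of the minus strand, had levels of 4.10 and 4.11 in total RNA, against 2.36 and 2.34 in polyA RNA. It remained the brightest of the 26 region strands with polyA RNA, although relative to the sense 3′ part of Ube3a it was lower by 1.79 ± 0.05 (limma adjusted p = 2.51e-38). Catalogue probes kept 10.8% and 10.1% of the signal, and the paternal-dependent ones among them, 311 of 331, kept 10.4% and 9.82%. The share lay between 7.09% and 10.91% in all 9 bins tested and both pairs. No bin between chr7:66960000 and chr7:67000001 was tested, so these 9 do not cover the whole region. One 1-kb window at chr7:66942001-66943000 stood out with 90.6% and 97.6% kept, but its signal was as high with the paternal deletion (8087) as in the wild type (8902 and 6555.5).

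Plateau 2 (chr7:66600001-66870000) had the greatest decrease in polyA RNA over all probes. Its minus strand had levels of 4.19 and 4.04 in total RNA, against 0.75 and 0.59 in polyA RNA, so the polyA values lay far below the total RNA values. Relative to the sense 3′ part of Ube3a the decrease was 3.48 ± 0.05 (limma adjusted p = 3.19e-52), but on catalogue probes alone, of which 59 were above background here, it was 1.91 against 2.03 for plateau 4. Thus the order of the plateaus by mean log2 level turned with the choice of probes. Catalogue probes cover plateau 2 thinly: of the 50 that depended on the paternal allele, 31 lay in its first bin. The 59 had mean net intensities of 1363 and 1123 in total RNA, against 10855 and 9378 over all 2514 probes. Their value therefore describes little of the plateau beyond its edge. In the fit on all 8 samples none of the 25 region strands passed against the reference, 5 having an unadjusted p under 0.05. In that fit the spread includes the 2 double-deletion samples, whose titles name different paternal Snrpn promoter deletions. They were fitted as 1 group, so a difference of genotype counts there as spread. They differ from each other by a median of 0.37 over 25 region strands, against 0.03 for the total RNA pair and 0.05 for the polyA pair. Over all 2514 minus-strand probes above background, polyA RNA kept 5.06% and 4.41%, and over the catalogue probes 4.46% and 4.54%. Of 270 windows of 1 kb, 211 kept under 5% in both pairs, and none kept over 50%.

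By net signal plateau 2 kept less than plateau 4, at 4.46% and 4.54% against 10.8% and 10.1% of the catalogue probes' signal. Paternal-dependent probes of the catalogue kept 2.74% and 2.89% in plateau 2. The total RNA arrays had 275 and 167 saturated spots and the polyA arrays 2 and 0. On any of the 4 arrays, 44 of 1059 minus-strand probes of plateau 4 were saturated, and 11 of 2514 of plateau 2. A saturated total RNA spot raises the share kept. How far this bears on the difference between the plateaus was not tested.

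Both plateaus are periodic on the array. In plateau 2 the log2 signals of minus-strand probes correlated most strongly at a distance of 1850 bp among distances of 1000 bp or more, with r of 0.71 and 0.72 in total RNA, against 0.75 and 0.75 in polyA RNA over 1483 probe pairs. In plateau 4 the distance was 2550 bp, with r of 0.52 and 0.51 in total RNA, against 0.52 and 0.52 in polyA RNA over 518 pairs. The plus strand of plateau 4 peaked at the same distance with r of 0.63 and 0.63 in total RNA and 0.67 and 0.64 in polyA RNA. That of plateau 2 peaked at 1900 bp in total RNA (0.60 and 0.60), but at 1100 and 1000 bp in polyA RNA (0.62 and 0.61). The spacing is thus not a trait of the minus strand alone, in plateau 2 by total RNA only. The change between RNA types was itself periodic in plateau 2, at 1900 bp (r of 0.64 and 0.63 in the 2 pairs). These correlations are across probes within an array.

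**Figure D4:**
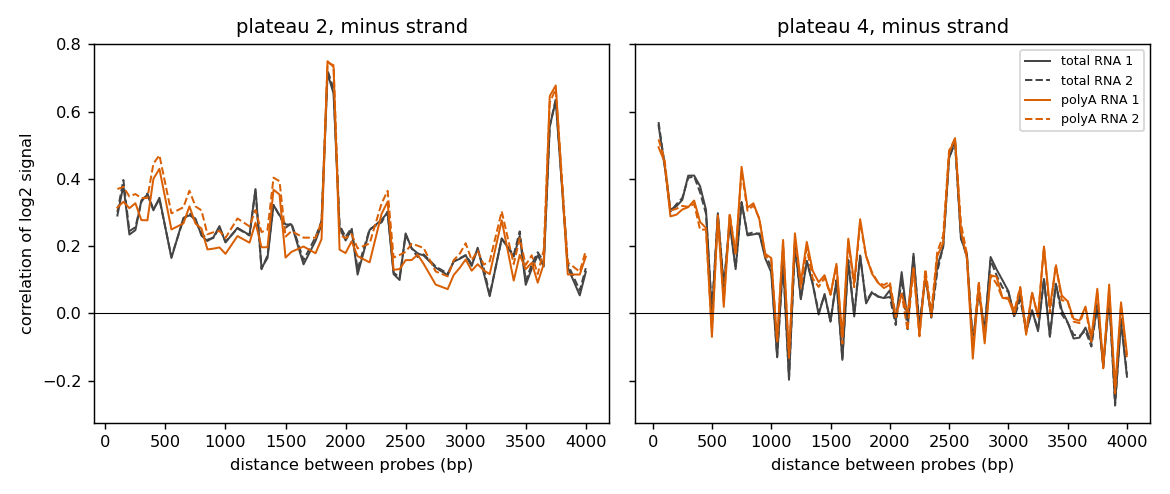
Correlation of minus-strand log2 signal between probes a given distance apart (bp, 50-bp steps with at least 100 probe pairs) in plateau 2 and plateau 4. Solid and dashed lines are samples 1 and 2. Both RNA types peak at 1850 bp in plateau 2 and 2550 bp in plateau 4.

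Unevenness within a region was measured as the 90th percentile less the median of its probes. It was 1.66 and 1.82 in minus-strand plateau 2 in total RNA, against 3.48 and 3.38 in polyA RNA. That was a rise of 1.69 ± 0.14 (limma adjusted p = 2.43e-15), but on the few catalogue probes there the unevenness fell by 1.27. Minus-strand probes of the Ube3a 3′ part likewise rose by 0.68 over all probes and fell by 0.44 on catalogue probes. Of the 26 region strands 21 passed (80.8%), 19 of them lower (73.1%), and these were the only 2 that passed as higher (7.69%). On the plus strand of the Ube3a 3′ part the spread fell by 0.99 over all probes and rose by 0.43 on catalogue probes.

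Between the plateaus, the dim stretch (chr7:66870001-66930000) had minus-strand levels of 1.22 and 1.32 in total RNA, against 0.10 and 0.13 in polyA RNA. Relative to the sense 3′ part of Ube3a it was lower by 1.19 ± 0.05 (limma adjusted p = 3.21e-30). Its catalogue probes kept 10.93% and 9.74%. Over paternal-dependent probes the bin next to plateau 4 kept 11.1% and 9.91%, and the 5 other bins kept between 2.81% and 7.31%. In the first 30 kb past Ube3a (chr7:66570001-66600000), levels were 0.18 and 0.24 in total RNA, against -0.40 and -0.44 in polyA RNA. The decrease relative to the sense 3′ part was 0.67 ± 0.05 (limma adjusted p = 2.78e-19), the same size as that of the antisense strand opposite the 3′ part. Its middle bin kept 19.8% and 12.98% over 44 paternal-dependent probes, above the bins on either side, which kept between 3.73% and 9.50%.

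The strand gap compares the strands of a region with no reference region. Of 13 regions, 10 passed (76.9%), 9 with a lower gap in polyA RNA (69.2%) and 1 with a higher gap (7.69%). The gap fell by 3.75 ± 0.08 in plateau 2, by 1.93 ± 0.03 in plateau 4, by 1.68 ± 0.04 in the stretch downstream of Snrpn, by 1.46 ± 0.04 in the dim stretch, by 1.02 ± 0.04 at the Snrpn end and by 0.95 ± 0.06 in the first 30 kb past Ube3a (limma adjusted p between 4.64e-06 and 0.00022). With polyA RNA the minus strand still led by 2.50 and 2.47 in plateau 4 and by 1.26 and 1.08 in plateau 2, while it was -0.09 and -0.05 in the dim stretch and -0.00 and 0.03 in the first 30 kb past Ube3a. By bins, 150 of 178 gaps passed (84.3%), 113 lower (63.5%) and 37 higher (20.8%). Among them all 27 of plateau 2, all 6 of the dim stretch, all 6 of the stretch downstream of Snrpn and 8 of 9 of plateau 4 were lower. The exception in plateau 4 was higher by 1.13. In the Ube3a 3′ part 3 of 4 gaps were lower and 1 did not pass.

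**Figure D5:**
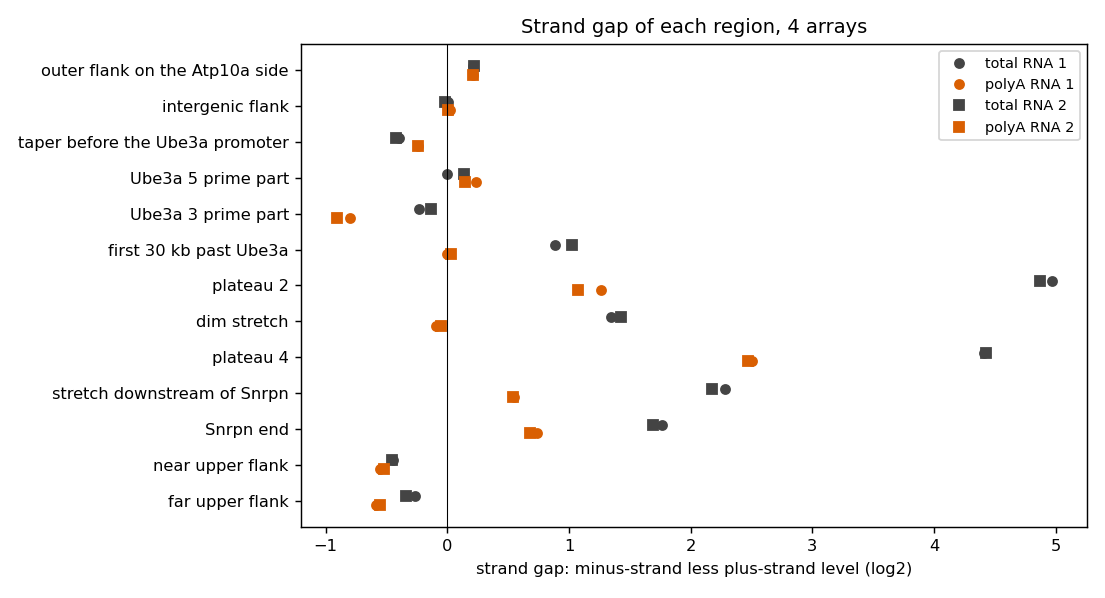
Strand gap, minus-strand less plus-strand log2 level, of the 13 regions on the 4 arrays. Circles and squares are samples 1 and 2. The polyA points lie left of the total RNA points from the Ube3a 3′ part to the Snrpn end, and the RNA types lie together in the outer and intergenic flanks.

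In the flanks the strand gap changed little as a mean over the region, while single bins went both ways. Of the 28 bins of the intergenic flank 10 gaps were higher and 15 lower (-1.20 to 1.81), of the 10 of the taper 4 were higher and 3 lower (-0.58 to 1.02), and of the 41 of the far upper flank 11 were higher and 25 lower (-1.52 to 1.62). In the outer flank on the Atp10a side (chr7:65890585-66100000) the strand gap was 0.21 and 0.22 in total RNA, against 0.21 and 0.21 in polyA RNA, a difference of -0.01 ± 0.02 that did not pass. In the intergenic flank (chr7:66100001-66380000) it did not pass either (0.02 ± 0.02, adjusted p = 0.594). The taper before the Ube3a promoter (chr7:66380001-66480000) was the only region whose gap passed as higher, by 0.17 ± 0.02, but with no filter on dim probes it passed as lower (-0.10, limma adjusted p = 0.0384). The near upper flank (chr7:67160001-67300000) fell by 0.09 and lost its call with the pair as a block (adjusted p = 0.0708). The far upper flank (chr7:67300001-67700765) fell by 0.27 ± 0.04. Catalogue probes of the flanks kept between 16.7% and 29.5%, except on the plus strand of the intergenic flank (45.0% and 39.3%) and of the taper (45.8% and 46.6%). Over all probes these 2 strands kept 15.9% and 13.9%, and 20.3% and 17.9%. Probes outside the tiled span kept 42.5% and 42.9% on the minus strand and 38.4% and 39.1% on the plus strand.

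Relative to the sense 3′ part of Ube3a, 23 of 25 region strands passed (92%), 9 higher (36%) and 14 lower (56%). The 9 that were higher were both strands of the outer flank and 7 other plus strands. For all 9 the net signal of catalogue probes gave the opposite sign, for example -0.55 on the plus strand of the first 30 kb past Ube3a and -1.14 on that of plateau 2. The net signal of all probes kept the sign of the log2 level in all 9, with 21.5% and 20.6% kept on the former strand and 26.5% and 22.2% on the latter, against 15.7% and 15.3% for the reference. These values therefore have no settled direction here. Over all probes the reference includes the bright sense windows from chr7:66550001 to chr7:66556000. The minus strands of plateau 2, the dim stretch, plateau 4 and the stretch downstream of Snrpn were below the reference by the log2 level and by the net signal of catalogue probes and of all probes, though by little over all probes in the stretch downstream of Snrpn (15.2% and 14.5% kept). The minus strands of the Ube3a 3′ part and of the first 30 kb past Ube3a were below it by the first 2 of these measures and above it over all probes, where the latter kept 21.4% and 19.3%.

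The 5 bins with the greatest decrease on the minus strand all lay in plateau 2, between -3.87 and -3.76, and the greatest was chr7:66790001-66800000 at 4.43 and 4.27 in total RNA, against 0.56 and 0.41 in polyA RNA. On the plus strand the 5 greatest decreases, from -1.86 to -1.25, were in the intergenic flank (chr7:66160001-66170000 and chr7:66300001-66310000), the far upper flank (chr7:67490001-67500000), plateau 4 (chr7:66940001-66950000) and the taper (chr7:66460001-66470000). These plus-strand bins were bright with total RNA, from 2.77 to 5.09. On catalogue probes alone 4 of the 5 were higher in polyA RNA, by 0.20 to 0.57, and the bin of plateau 4 was higher, by 0.18, on the 75th percentile of all probes. The 5 greatest increases were between 0.43 and 0.58 on the minus strand and between 0.58 and 0.71 on the plus strand, in the outer and upper flanks and, on the plus strand, also in the first 30 kb past Ube3a and the Snrpn end.

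Runs were sought as at least 4 neighbouring probes that each changed by 1 or more, relative to the median bin, in both pairs. There were 364 lower runs with 6795 of the 41874 tested probes, and 66 higher runs with 316 probes. This split belongs to the scale: scaling to the 75th percentile of all probes moved the median bin by 1.67, more than the cut of 1. Runs were not sought on that scale. The longest lower run held 858 probes of plateau 2 (chr7:66761235-66855454), with mean levels of 4.47 and 4.30 in total RNA and 0.73 and 0.55 in polyA RNA, and the 4 next longest began in plateau 2 as well, the last of them reaching into the dim stretch (chr7:66855505-66873714). Only 12 of the 66 higher runs held probes that were all above background on the 4 arrays. The longest was on the plus strand of the taper before the Ube3a promoter (chr7:66426945-66427554, 11 probes), where levels were 2.26 and 2.29 in total RNA, against 3.81 and 3.71 in polyA RNA. A run of 10 probes on the plus strand of the far upper flank (chr7:67583260-67583845) went from 1.69 and 1.62 to 3.25 and 3.07. When runs were sought among probes above background on all 4 arrays, 16 were found, 12 on the plus strand. The Snrpn end held 2 of the 4 on the minus strand, at chr7:67128233-67128416 (4.01 and 3.89 against 5.41 and 5.30) and chr7:67132290-67132448 (5.54 and 5.40 against 6.80 and 6.70). The other named runs, of 6 to 8 probes, lay on the plus strand of the far upper flank (chr7:67301076-67301575), the outer flank (chr7:66084185-66084499), the intergenic flank (chr7:66122355-66122744 and chr7:66182924-66183244), the stretch downstream of Snrpn (chr7:67077006-67078238) and the taper (chr7:66413295-66414244), and on the minus strand of plateau 4 (chr7:66942075-66942904) and the taper (chr7:66459505-66460114). Both runs of the Snrpn end lie in the stretch whose windows kept most of their net signal.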

How the data were processed

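Labelled first-strand cDNA (Cy5) was hybridised to a custom strand-specific tiling array. The authors deposited scanner output with red intensity per spot, extracted with Agilent Feature Extraction 10.7.3.1 per the file headers, while the submitters' processing notes name 10.9. Red median intensity and local background were corrected by normexp (offset 50) in limma 3.58.1 under R 4.3.3, converted to log2 and averaged per probe. Control spots were left out, and probes had to be well above background on both arrays of a group. Each array was centred on the median of its tiled strand bins. Bins, regions, strand gaps and probes were tested with lmFit and eBayes, with Benjamini-Hochberg adjustment at 0.05. With 2 samples against 2, the smallest two-sided exact permutation p is 0.333.

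The design text derives the polyA RNA from the same wild-type samples, so sample numbers pair them; deviations of same-numbered samples correlated at 0.18 over 41874 probes and 0.07 over 356 bins. The comparison, regions and lists were chosen with earlier results of these data known. Named bins were the 5 called bins with the greatest change in each direction and strand. Gene lists and cortex markers could not be applied, because the files name no genes. The scripts were tested on simulated data. The number of arrays limits the precision.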

Additional observations from a re-analysis of the deposited data

How the results depend on the processing

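With the pair as a replicate block, 299 strand bins, 144 bin gaps, 24 region levels, 9 region gaps, 22 regions against the Ube3a reference and 31730 probes passed; beside the calls named above, the probe contrast of minus-strand plateau 4 (adjusted p = 0.0405) and plus-strand Ube3a 5′ (0.0383) was gained. Leaving out 1 array at a time, where the lone array is assumed to vary like the others, gave 265 to 324 bins, 121 to 146 bin gaps, 21 to 24 region levels, 8 to 10 region gaps, 21 to 23 regions against the reference, 29780 to 30735 probes and 19 to 23 contrasts, and put the far upper flank plus strand between -0.026 and 0.036. With all 8 samples, 195 bins, 91 bin gaps, 6 region gaps and 0 regions against the reference passed in limma (5 at an unadjusted p under 0.05). With 20-kb bins, 152 of 180 levels and 71 of 90 gaps passed. Of fewer probes, 10575 passed on catalogue probes and 10210 on the series matrix values.

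Directions turned mainly in flanks and plus strands, and the cause was not tested. The outer flank's strand gap was 0.061 (offset 16), 0.017 (no background correction), 0.38 (subtraction, floor 1), 0.023 (series matrix), 0.20 (no filter), 0.056 (above background on all 4 arrays), 0.014 (catalogue) and 0.096 (same-coordinate pairs). The intergenic flank's gap was -0.096 (series matrix) and -0.072 (catalogue), and the taper's -0.10 (no filter). Against the reference, the near upper flank minus strand was -0.11 (offset 16), -0.00366 (no background correction), -0.70 (floor 1), -0.28 (all 4 arrays) and -0.93 (net signal). The intergenic flank, minus and plus, was 0.062 and 0.023 (floor 1), 0.26 and 0.35 (series matrix), 0.14 and 0.10 (no filter), and 0.25 and 0.32 (catalogue). The taper was 0.29 and 0.13 (floor 1), 0.32 and 0.24 (series matrix) and 0.31 and 0.23 (catalogue), and its plus strand 0.096 without a filter. The outer flank plus strand was -0.039 (floor 1), the far upper flank plus strand -0.13 (all 4 arrays) and -0.044 (custom), the near upper flank plus strand -7.19e-05 (all 4 arrays), and Ube3a 5′ minus 0.063 (custom). By net signal of catalogue probes the values were 0.34 (Snrpn end minus), 0.32 and 0.46 (intergenic flank and taper plus), -0.35 and -0.62 (outer flank minus and plus), and, on plus strands, -0.89 (Snrpn end), -0.98 (dim stretch), -0.23 (far upper flank), -0.55 (first 30 kb), -0.67 (near upper flank), -1.14 (plateau 2), -0.83 (plateau 4) and -0.72 (downstream of Snrpn).

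Plus-strand bins from 66160001, 66300001, 66460001, 67490001 and 67700001 were 0.24, 0.63, 0.22, 0.29 and -0.069 on the series matrix values and 0.22, 0.57, 0.20, 0.28 and -0.063 on catalogue probes. On the 75th percentile of all probes those from 66460001 and 66940001 were 0.35 and 0.18. The minus-strand bin from 67270001 was -0.52 (floor 1) and -0.12 (quantile). Contrasts of plateau 2 minus, Ube3a 3′ minus and Ube3a 3′ plus were -1.07, -0.31 and 0.67 on the series matrix values and -1.27, -0.44 and 0.43 on catalogue probes. Against the reference, minus-strand plateau 2 lay between -3.86 and -1.91 and plateau 4 between -2.03 and -0.69 in every setting run. Net signal near background on the polyA arrays limits the low percentages.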
